A study of Mus musculus with 15 samples.

Results

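The genes described here are 10 mouse genes of the integrated stress response, Atf4, Ppp1r15a, Ddit3, Trib3, Chac1, Asns, Psat1, Phgdh, Fgf21 and Gdf15, among the 55416 gene identifiers measured in each of 15 libraries. They were taken by name from a list of ATF4 and genes known to respond to it, and each name was matched to its Ensembl identifier. The list was chosen with earlier results of these data known. Gene expression was measured by sequencing of total RNA from the tibialis anterior, which lifts the foot, in male mice of strain C57BL/6 (C57BL/6NCrlOri) aged 6 to 8 weeks. Of the 4 groups, 3 carried tumours: cells of the line KrasIKKaL, 5000000 per mouse, were delivered into the trachea. The IgG mice then received an isotype rat IgG2b, for which dose and schedule are not given in the sources used here (n = 4). The anti-PD-L1 mice received a PD-L1 antibody at 200 µg/kg (n = 3) and the anti-CD8a mice a CD8a antibody at 200 µg (n = 3), both 3 times a week into the peritoneum. The control mice had no tumour, and no antibody is named for them (n = 5). The study was set up to look for targets in cachexia, the loss of muscle and weight in cancer, and in muscle damage by immune therapy. A tumour is present in all antibody groups and in no control, so tumour and injected antibody cannot be told apart against the control.

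The integrated stress response starts when one of several kinases phosphorylates the translation factor eIF2α. General translation then falls, while the mRNA of the transcription factor ATF4 is translated more, and ATF4 turns on genes for amino acid supply, redox balance and, under lasting stress, cell death. In skeletal muscle the response is best known from mitochondrial disease and amino acid shortage, in which muscle can release the hormones FGF21 and GDF15 into the blood. ATF4 binds DNA with C/EBP proteins at a composite site, the C/EBP-ATF response element, whose core is TGATGNAA (N is any base).

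The promoters of the 10 genes were searched for that core, because a shared site is the feature that the list's common regulator would read. RefSeq (GRCm38.p6) gave 12 promoters for the 10 genes, each reaching 250 bases before to 50 after the start of transcription. The core stood on either strand in 4 of the 12 promoters, those of Asns, Chac1, Fgf21 and Trib3, against 3.97% of all 32851 promoters of that length. The stretches that hold it are given 5′ to 3′ on the strand of the gene, with the core in capitals; in Chac1, Fgf21 and Trib3 the core reads on the opposite strand, so that its reverse complement is seen.
Asns: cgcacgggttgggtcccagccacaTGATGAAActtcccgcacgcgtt
Chac1: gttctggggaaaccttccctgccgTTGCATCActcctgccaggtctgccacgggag
Fgf21: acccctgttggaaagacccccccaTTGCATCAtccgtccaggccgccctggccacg
Trib3: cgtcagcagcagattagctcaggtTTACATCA
The Asns stretch lies at chr6:7693210-7693256 on the minus strand, with the first base of the core at position -23, counted from the start of transcription. The Chac1 stretch lies at chr2:119351025-119351080 on the plus strand, with the core at -193. The Fgf21 stretch lies at chr7:45615598-45615653 on the minus strand, with the core at -139. The Trib3 stretch lies at chr2:152344039-152344070 on the minus strand, with the core at 15 after the start; the stretch shown ends with the core. The narrower core TGATGCAA stood in the promoters of Chac1 and Fgf21, against 0.895% of all promoters. The endoplasmic reticulum stress element, CCAAT and CCACG with 9 bases of any kind between them, searched on both strands, stood in 0 of the 12 promoters and in 0.119% of all. A match describes the letters and is not a measured binding site, and a missing match says only that these letters are not in the window. The genes with a match differed in the muscle: Asns and Trib3 were higher in IgG muscle, Chac1 was spread widely, and Fgf21 was near zero, as set out in turn.

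Libraries held 15894822 to 22459370 expected counts, the read counts that the program RSEM estimates per gene. CPM are these counts scaled to a common library size with TMM factors. The 8 fibre genes Acta1, Ckm, Mylpf, Tnnt3, Myh4, Myh1, Myh2 and Pygm summed to 55221 to 91408 CPM in anti-PD-L1 muscle, the lowest range, and to 81714 to 116360 CPM in control muscle, the highest, while 3 liver genes stayed at or below 0.611 CPM in every library. A further sum took 4 genes listed for lung epithelium and tumour, Krt8, Epcam, Sftpb and Sftpc. It was 0.378 to 7.09 CPM in IgG muscle and 0.171 to 2.95 CPM in anti-PD-L1 muscle. In anti-CD8a muscle it was 0.0537 to 0.347 CPM, and in control muscle 0.134 to 0.354 CPM. Krt8 held most of the counts of this list over all libraries, so the sum mainly followed that gene. Whether RNA of lung or tumour was present in the muscle was not tested. The 1 gene of that list that passed the filter, Krt8, was called higher in IgG muscle against control (log2 fold change 3.42) and lower in anti-CD8a against IgG muscle (-3.66), and its part in the results was not tested. Genes encoded by the mitochondria took 12.8% to 16.7% of counts in IgG muscle, 11.1% to 14.4% in anti-PD-L1 muscle, 20.2% to 23.1% in anti-CD8a muscle and 17.6% to 23.0% in control muscle. On the first principal component, which held 56.1% of the variance, IgG replicate 2 lay at 38.0 and the other IgG libraries at 77.4 to 92.3. On the same axis anti-PD-L1 replicate 2 lay at 60.5 and the others of its group at 4.98 and 22.9, anti-CD8a libraries at -41.3 to -33.8 and controls at -59.5 to -43.6. Whether the libraries of a group are different mice is not stated in the labels, so p-values measure the spread between these libraries.

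Of the 10 genes, 2 were near zero: Fgf21 and Gdf15, both of which encode secreted hormones and had a median count below 10 in every group. Fgf21 had 0, 0, 2 and 0 counts in IgG muscle, 0, 0 and 1 in anti-PD-L1 muscle, 1, 0 and 0 in anti-CD8a muscle, and 0 in all 5 controls. That is 4 counts in 15 libraries, with 12 libraries at 0, where 0 counts allow up to 0.129 to 0.186 CPM (3 counts of a library, on the TMM scale). Gdf15 had 0, 0, 6 and 2 counts in IgG muscle, 2 in each anti-PD-L1 library, 2, 5 and 2 in anti-CD8a muscle, and 1, 2, 0, 0 and 1 in control muscle. The ranges overlapped between IgG and control for both genes. Scaled to library size, the Gdf15 ratio was 2.75 for IgG over control (95% interval 0.735 to 12.5), 2.31 for anti-PD-L1 over control (0.549 to 11.1) and 3.63 for anti-CD8a over control (1.01 to 16.2), where the intervals cover counting error only. Neither gene passed the filter on low counts, and in a fit without that filter neither was called in any of the 6 comparisons, with adjusted p of 0.241 to 1 (edgeR). The other 8 genes passed the filter and were tested.

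Their levels differed widely. Per transcript length, in the length-scaled TPM of RSEM, the order in IgG muscle was Atf4 at 370 ± 62.6 (SD), Ppp1r15a at 257 ± 95.8, Chac1 at 32.3 ± 48.1 and Ddit3 at 7.98 ± 3.59. In control muscle Atf4 was again highest, at 94.7 ± 11.03 TPM, but Chac1 at 56.8 ± 16.8 TPM stood above Ppp1r15a at 16.5 ± 5.59 TPM, and Ddit3 had 8.60 ± 1.81 TPM. Anti-PD-L1 muscle kept the IgG order, with Atf4 at 248 ± 65.2, Ppp1r15a at 156 ± 105, Chac1 at 84.9 ± 47.8 and Ddit3 at 6.63 ± 1.14 TPM. Anti-CD8a muscle kept the control order, with Atf4 at 107 ± 11.6, Chac1 at 36.4 ± 20.2, Ppp1r15a at 19.1 ± 6.22 and Ddit3 at 7.63 ± 1.299 TPM. Neighbours in this order overlapped within their SDs for Atf4 and Ppp1r15a in IgG and anti-PD-L1 muscle, for Ppp1r15a and Chac1 in anti-PD-L1 and anti-CD8a muscle, and for Chac1 and Ddit3 in IgG muscle. Psat1, Trib3, Asns and Phgdh lay at 0.663 to 3.31 TPM as group means, close enough that their order changed from group to group. The transcript length that RSEM assigned varied between libraries from 1117 to 1986 bases for Ppp1r15a and from 1370 to 2572 bases for Psat1, which moves their TPM but not their CPM.

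**Figure D1:**
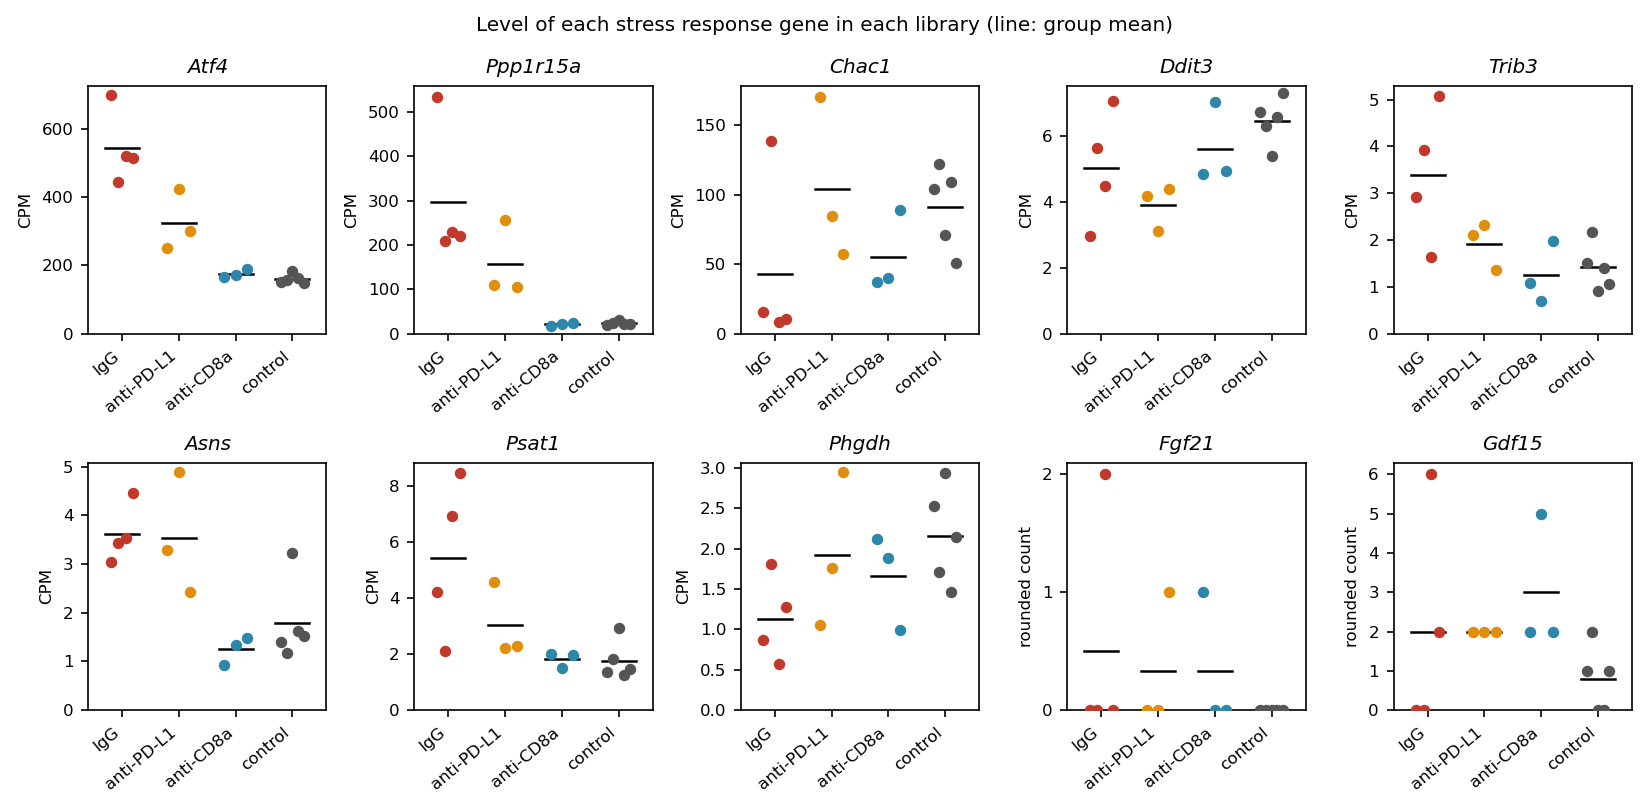
Level of each of the 10 genes in each library, as TMM-scaled CPM, or as rounded counts for Fgf21 and Gdf15; each point is a library, each line a group mean, and the groups run IgG, anti-PD-L1, anti-CD8a, control. Atf4 and Ppp1r15a are high in all IgG and anti-PD-L1 libraries, whereas Chac1 has 1 IgG library at 139 CPM and the other 3 at 8.44 to 15.5 CPM.

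In IgG muscle 5 of the 8 tested genes rose against control, Atf4, Ppp1r15a, Psat1, Trib3 and Asns, against 30.2% of all 14372 genes tested that were higher. A single gene, Phgdh, fell, against 28.4% of all genes that were lower, and Chac1 and Ddit3 did not pass the test. A gene was called at an adjusted p under 0.05 in edgeR's quasi-likelihood test, adjusted over all genes tested. With so many of all genes called in each direction, a call by itself sets no member apart.

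Atf4, the transcription factor of the response, had 699, 444, 523 and 515 CPM in the 4 IgG libraries, against 152, 157, 184, 164 and 147 CPM in the 5 controls. All IgG libraries lay above all controls, and IgG replicate 1 was the highest. The log2 fold change was 1.76 ± 0.16 (SE), a 3.40-fold higher level, with an adjusted p of 8.45e-07. Ppp1r15a, also called GADD34, encodes a regulatory subunit of the phosphatase that removes the phosphate from eIF2α and so switches the response off. It had 533, 209, 228 and 221 CPM in IgG muscle, against 19.5, 22.9, 30.2, 20.9 and 22.3 CPM in control muscle. The groups were far apart, and again IgG replicate 1 was highest. The log2 fold change was 3.68 ± 0.32 (adjusted p 6.51e-07), 12.9-fold, the largest among the 8 genes. In bulk muscle, a change in the number of cells of a type and a change in RNA per cell cannot be told apart.

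The amino acid enzymes were at low levels. Asns, asparagine synthetase, had 3.04, 3.43, 3.53 and 4.46 CPM in IgG muscle, against 1.40, 1.18, 3.22, 1.62 and 1.52 CPM in control muscle. Control replicate 3 alone reached into the IgG range. The log2 fold change was 1.02 ± 0.29 (adjusted p 0.00692). Psat1, the second enzyme of serine synthesis, had 4.22, 2.11, 6.93 and 8.49 CPM in IgG muscle, against 1.35, 1.83, 2.93, 1.24 and 1.47 CPM in control muscle. IgG replicate 2 was the low IgG library and control replicate 3 the high control, and these 2 overlapped. The log2 fold change was 1.63 ± 0.37 (adjusted p 0.00134). Phgdh, the first enzyme of the same pathway, went the other way, with 0.869, 1.81, 0.567 and 1.28 CPM in IgG muscle and 2.52, 1.71, 2.93, 1.46 and 2.14 CPM in control muscle. The ranges overlapped, the log2 fold change was -0.92 ± 0.38 and the adjusted p was 0.0451. The Phgdh call was lost in 8 of 26 alternative settings, with adjusted p from 0.0151 to 0.135, among them those without any of control replicates 1, 3 and 5, IgG replicates 1, 3 and 4 and anti-PD-L1 replicate 2, and its counts were not whole numbers in 12 libraries, since RSEM shares out reads that match several places.

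Trib3, a pseudokinase that binds ATF4 and dampens it, had 2.92, 3.91, 1.64 and 5.07 CPM in IgG muscle, against 1.51, 2.18, 0.920, 1.41 and 1.07 CPM in control muscle. IgG replicate 3 lay within the control range and the other IgG libraries above it. The log2 fold change was 1.26 ± 0.35 (adjusted p 0.00623). Ddit3, which encodes the cell death factor CHOP, had 2.98 to 7.09 CPM in IgG muscle and 5.41 to 7.31 CPM in control muscle, with a log2 fold change of -0.36 ± 0.22 (adjusted p 0.171). It was called lower without IgG replicate 4 (adjusted p 0.0403) and with upper-quartile scaling (-0.61, adjusted p 0.0336). A further Ddit3 identifier that overlaps the first held 0 counts in all libraries.

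Chac1, an enzyme that breaks down glutathione, showed the widest spread. It had 15.5, 139, 8.44 and 10.6 CPM in IgG muscle, against 105, 122, 71.0, 109 and 50.8 CPM in control muscle. IgG replicate 2 was above every control, whereas the other 3 IgG libraries were below every control. With all libraries the log2 fold change was -1.08 ± 0.67 and the adjusted p 0.18; without IgG replicate 2 it was -2.99 with an adjusted p of 3.8e-05, and over all 26 alternatives adjusted p ran from 3.8e-05 to 0.365. IgG replicate 2 is also the IgG library nearest to the controls on the first principal component, and the part of that position in its Chac1 level was not tested.

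**Figure D2:**
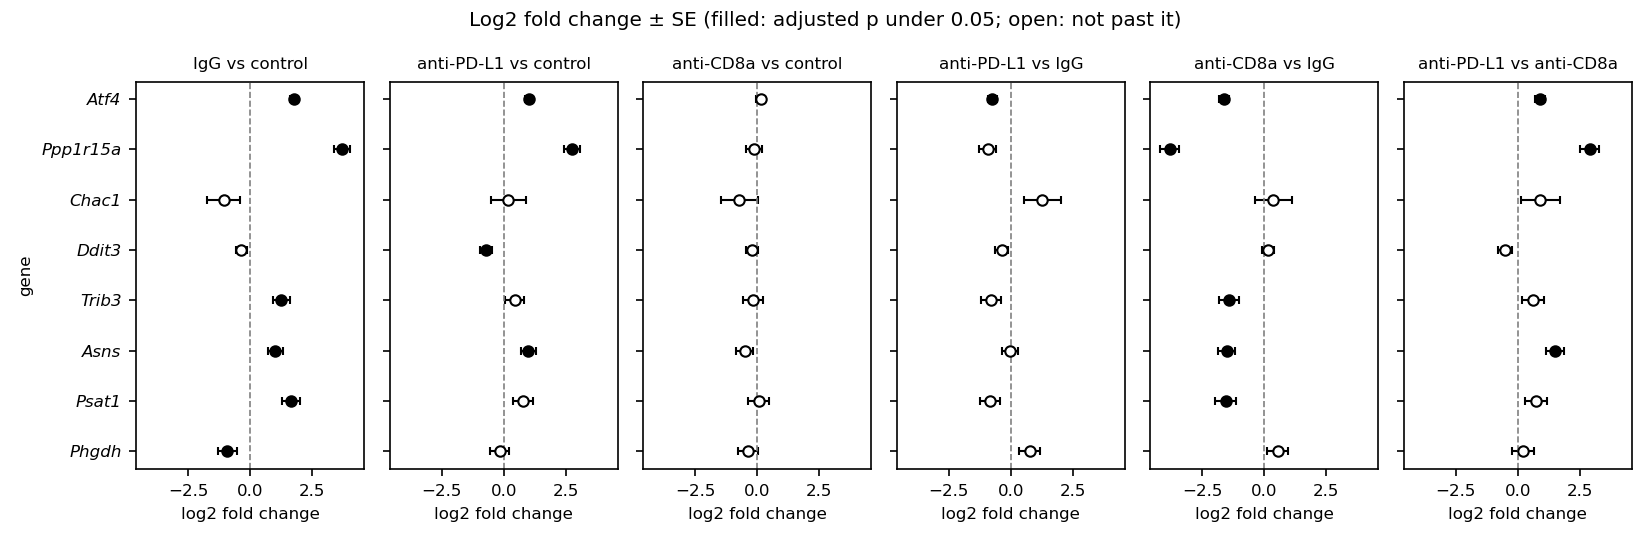
Log2 fold change (x axis) of the 8 tested genes (y axis) in the 6 comparisons, with bars of 1 SE; filled points passed an adjusted p under 0.05. Ppp1r15a and Atf4 are filled to the right in IgG and anti-PD-L1 muscle against control, no point is filled in anti-CD8a muscle against control, and 5 points are filled to the left in anti-CD8a against IgG.

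In anti-PD-L1 muscle 3 of the 8 genes rose against control, Atf4, Ppp1r15a and Asns, against 20.8% of all genes, and 1 fell, Ddit3, against 13.9% of all genes. Over all genes these are 2989 higher and 1999 lower, or 1879 and 1134 without anti-PD-L1 replicate 2. Atf4 had 253, 424 and 301 CPM in anti-PD-L1 muscle, all above the control range of 147 to 184 CPM, with a log2 fold change of 1.02 ± 0.17 (adjusted p 0.000467). Ppp1r15a had 110, 256 and 105 CPM in anti-PD-L1 muscle, also all above the control range of 19.5 to 30.2 CPM, with a log2 fold change of 2.76 ± 0.32 (adjusted p 4.89e-05). For both genes replicate 2 was the highest of the 3, as it was on the first principal component. Asns had 3.29, 4.89 and 2.42 CPM in anti-PD-L1 muscle, which overlapped the controls only at control replicate 3, and its log2 fold change was 0.98 ± 0.31 (adjusted p 0.0217). Ddit3 had 4.20, 3.13 and 4.40 CPM in anti-PD-L1 muscle, below every control, with a log2 fold change of -0.73 ± 0.24 (adjusted p 0.0288).

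The other 4 genes did not pass the test in anti-PD-L1 muscle against control. Psat1 had 4.58, 2.23 and 2.29 CPM (log2 fold change 0.78 ± 0.40, adjusted p 0.138) and Trib3 2.10, 2.31 and 1.36 CPM (0.44 ± 0.39, adjusted p 0.392). Chac1 had 170, 84.9 and 57.5 CPM (0.19 ± 0.71, adjusted p 0.859), and Phgdh had 1.05 to 2.95 CPM (-0.16 ± 0.38, adjusted p 0.77). The calls of Asns and Ddit3 were less steady than those of Atf4 and Ppp1r15a: over 26 alternatives the adjusted p of Asns ran from 0.00253 to 0.161 and that of Ddit3 from 0.00755 to 0.137. Asns was not called without anti-PD-L1 replicate 2 (log2 fold change 0.68), nor without control replicate 1 or 2, and Ddit3 lost its call when any of control replicates 1 and 5 and anti-PD-L1 replicates 1 and 2 was left out.

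In anti-CD8a muscle none of the 8 genes was called against control, 0 higher and 0 lower, where 0.00696% of all genes were higher and 0.00696% lower, 1 gene each. The count was also 0 at an unadjusted p under 0.05 in edgeR, and 0 with DESeq2 and with limma-voom. Atf4 had 166, 171 and 191 CPM in anti-CD8a muscle, and Ppp1r15a 18.0, 20.6 and 24.8 CPM. Both lay mostly within the control range, with log2 fold changes of 0.13 ± 0.17 (adjusted p 0.92) and -0.13 ± 0.33 (adjusted p 0.964). Chac1 had 37.4, 39.9 and 88.9 CPM, with 2 libraries below every control and a log2 fold change of -0.72 ± 0.73 (adjusted p 0.885). Asns had 0.926, 1.34 and 1.49 CPM, with a log2 fold change of -0.51 ± 0.34 (adjusted p 0.809), the smallest of the 8 adjusted p-values. A p above the threshold does not show that the levels were equal, and the SE of 0.73 for Chac1 leaves room for a sizeable difference.

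Anti-CD8a muscle differed most from IgG muscle, a comparison between tumour-bearing groups that uses the same IgG libraries as before. Here 5 of the 8 genes were lower, against 24.8% of all genes, and 0 were higher, against 23.2% of all genes; 0 were higher at an unadjusted p under 0.05, and 0 with DESeq2 or limma-voom. Atf4 had a log2 fold change of -1.63 ± 0.19 (adjusted p 2.11e-05) and Ppp1r15a one of -3.82 ± 0.39 (adjusted p 1.28e-05), and all anti-CD8a libraries lay below all IgG libraries for both. Asns (-1.52 ± 0.35, adjusted p 0.00232) and Psat1 (-1.56 ± 0.43, adjusted p 0.00761) also had ranges that did not overlap, with Psat1 at 2.02, 1.503 and 1.98 CPM in anti-CD8a muscle and at least 2.11 CPM in IgG muscle. Trib3, with 1.09, 0.698 and 1.98 CPM in anti-CD8a muscle, had a log2 fold change of -1.42 ± 0.42 (adjusted p 0.0111), which was lost without anti-CD8a replicate 2 (adjusted p 0.0579). Over the 26 alternatives its adjusted p ran from 0.00343 to 0.0655. Ddit3 (0.15 ± 0.25, adjusted p 0.637), Phgdh (0.55 ± 0.42, adjusted p 0.301) and Chac1 (0.36 ± 0.75, adjusted p 0.714) did not pass the test. Without IgG replicate 2 the Chac1 value was 2.27, with an adjusted p of 0.000735, within a range over the alternatives of 0.000735 to 0.991.

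Anti-PD-L1 muscle was closer to IgG muscle. A single gene, Atf4, was lower, against 1.54% of all genes (222 genes), and 0 were higher, against 3.96% of all genes (569 genes); 0 were higher at an unadjusted p under 0.05 in edgeR, and 0 with DESeq2 or limma-voom after adjustment. Those shares rest on single libraries: the number of all genes called lower was 1153 without IgG replicate 2 and 1288 without anti-PD-L1 replicate 2, but 10 without IgG replicate 1, 23 without IgG replicate 4, 8 without anti-PD-L1 replicate 1 and 5 without anti-PD-L1 replicate 3. All 3 anti-PD-L1 libraries lay below all 4 IgG libraries for Atf4, whose log2 fold change was -0.74 ± 0.18 (adjusted p 0.0337). The call was not stable: adjusted p ran from 0.00101 to 0.244 over 26 alternatives. Leaving out any of IgG replicates 1, 3 and 4 or of anti-PD-L1 replicates 1 and 3 ended it, as did the fit of these 2 groups alone. Ppp1r15a had -0.92 ± 0.34 (adjusted p 0.106), and without anti-PD-L1 replicate 2 it was -1.47 (adjusted p 0.0102), within a range of 0.00326 to 0.354. With all libraries kept, Ppp1r15a was called lower with DESeq2 (-0.97, adjusted p 0.0475) and in edgeR without a filter (-0.90, adjusted p 0.0413). Psat1 (-0.84 ± 0.41, adjusted p 0.197), Trib3 (-0.81 ± 0.40, adjusted p 0.201), Ddit3 (-0.37 ± 0.25, adjusted p 0.349) and Phgdh (0.76 ± 0.42, adjusted p 0.25) did not pass; without IgG replicate 2 Psat1 did, at -1.11 (adjusted p 0.0422). Asns was level at -0.03 ± 0.32 (adjusted p 0.96), and its sign turned under upper-quartile scaling (0.064) and library totals (0.16). Chac1 had 1.27 ± 0.74 (adjusted p 0.28), and without IgG replicate 2 it was 3.18 (adjusted p 0.00205), within a range of 0.000574 to 0.653.

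Set against each other, anti-PD-L1 muscle had 3 of the 8 genes higher than anti-CD8a muscle, against 12.1% of all genes, and 0 lower, against 7.64% of all genes; 0 were lower at an unadjusted p under 0.05, and 0 after adjustment with DESeq2 or limma-voom. Over all genes these are 1738 higher and 1098 lower, or 783 and 443 without anti-PD-L1 replicate 2, 733 and 519 without anti-CD8a replicate 1, and 785 and 526 without anti-CD8a replicate 2. The higher genes were Ppp1r15a (2.89 ± 0.39, adjusted p 0.000581), Atf4 (0.89 ± 0.20, adjusted p 0.00688) and Asns (1.49 ± 0.36, adjusted p 0.0115), all as log2 fold changes, and for all 3 every anti-PD-L1 library lay above every anti-CD8a library. The Asns call was lost without anti-PD-L1 replicate 2 (adjusted p 0.0629) and without anti-CD8a replicate 1 (0.0598), in a range of 0.0023 to 0.0629. Psat1 was also higher in each anti-PD-L1 library without passing the test (0.72 ± 0.45, adjusted p 0.268), and Ddit3 was lower in each without passing it (-0.52 ± 0.27, adjusted p 0.174).

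Across the 15 libraries Ppp1r15a followed Atf4 most closely of the 8 genes. Pearson's r of log2 CPM was 0.978, and 0.921 once the group means were removed, as a description over libraries that share their groups and scaling. Asns had r of 0.806 with Atf4 and 0.424 within groups. Psat1 and Trib3 had r of 0.740 and 0.693 with Atf4 over all libraries, but 0.021 and 0.00076 within groups. Their low counts, 23 to 139 per library for Psat1 and 13 to 83 for Trib3, limit what an r within groups can show. Ddit3 ran against Atf4, with r of -0.595 over all libraries and -0.717 within groups, and Chac1 did so with -0.554 and -0.327. IgG replicate 1 and anti-PD-L1 replicate 2 had the highest Atf4 of their groups, at 9.45 and 8.73 log2 CPM. The same libraries had the highest Ppp1r15a (9.06 and 8.00) and the lowest Ddit3 (1.63 and 1.69) of their groups. Their part in the r within groups was not tested.

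**Figure D3:**
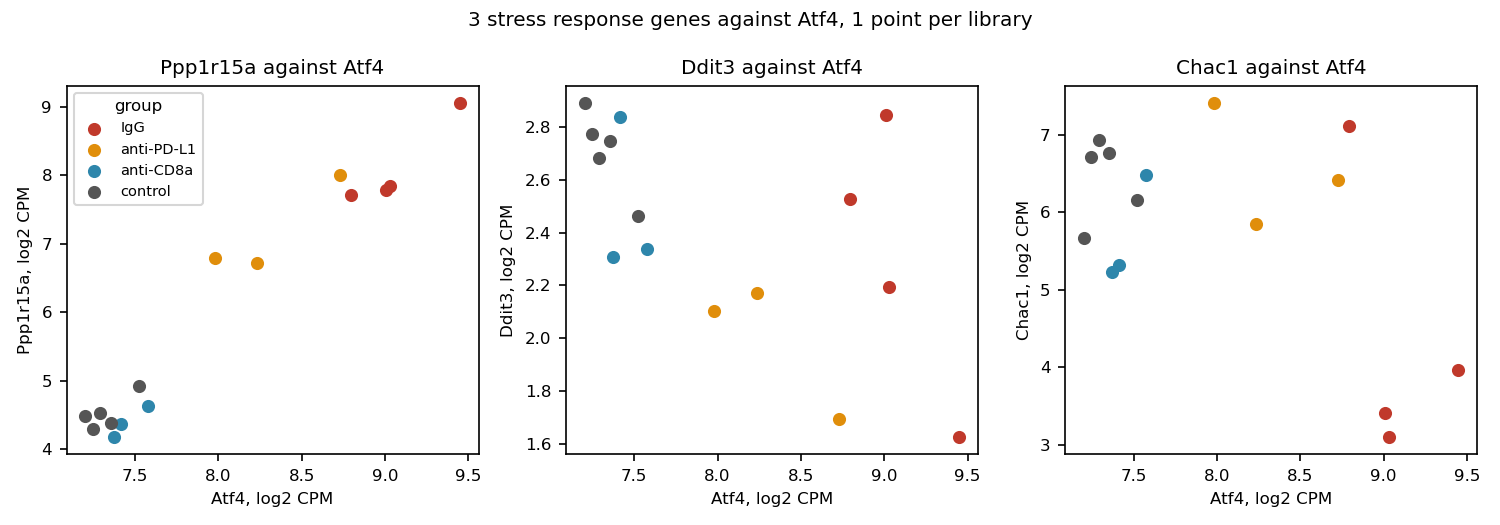
Log2 CPM of Ppp1r15a, Ddit3 and Chac1 (y axes) against log2 CPM of Atf4 (x axes), 1 point per library, coloured by group in the order IgG, anti-PD-L1, anti-CD8a, control. Ppp1r15a climbs with Atf4 (r 0.978), Ddit3 is lowest in the IgG library with the highest Atf4 (r -0.595), and 1 IgG library lies far above the other 3 in Chac1.

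Among all genes with a mean of at least 1 CPM, the closest in pattern to Atf4 were Fto (r 0.990), Utp14a (0.988) and Anxa11 (0.987). Those closest to Ppp1r15a were Slc15a4 (0.991), Rhbdf2 (0.986) and Mfsd4a (0.986). Chac1 was nearest to Clu (0.897), Igfals (0.871) and Mdfic (0.855), and Ddit3 to Desi1 (0.883), Zfp597 (0.863) and Ocel1 (0.854). Asns was nearest to Tigd5 (0.940), Mmp14 (0.934) and Arhgap26 (0.931), and Psat1 to Kpnb1 (0.937), Tln1 (0.932) and Canx (0.928). Trib3 was nearest to Zfp263 (0.894), Dbr1 (0.889) and Nfat5 (0.874), and Phgdh to Enpp2 (0.844), Ube3c (0.827) and Sulf2 (0.815). All are Pearson correlations over the 15 libraries, and the members themselves were not among the genes searched.

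The wider pathway was read from 81 other genes in 9 lists, of which 78 passed the filter. In IgG muscle against control 47 of the 78 were higher and 10 lower, with a median log2 fold change of 0.70, where the median of all genes was -0.02 and 30.2% of all genes were higher and 28.4% lower. In anti-PD-L1 muscle against control 33 were higher and 6 lower, against 20.8% and 13.9% of all genes. In anti-PD-L1 against anti-CD8a muscle 25 were higher and 3 lower, against 12.1% and 7.64% of all genes. In anti-CD8a muscle against control the counts were 0 and 0, against 0.00696% of all genes in each direction. In anti-CD8a muscle 3 of the 78 were higher and 0 lower at an unadjusted p under 0.05, and DESeq2 and limma-voom also called 0. In anti-CD8a against IgG muscle 8 were higher and 38 lower, with a median of -0.60, where that of all genes was 0.02 and 23.2% of all genes were higher and 24.8% lower. The lists hold 3 to 14 tested genes each, and their counts are descriptions to be read against these shares. These comparisons share the control or the IgG libraries, so they are not separate evidence of each other.

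The list of growth and translation brakes among the ATF4 targets also held Vldlr, a lipoprotein receptor gene. Of these 7 genes 6 rose and 1 fell in IgG muscle against control, where 30.2% of all genes were higher and 28.4% lower. Their median log2 fold change was 1.24. Eif4ebp1, the repressor of cap-dependent translation 4E-BP1, averaged 479 ± 142 CPM in IgG muscle and 48.2 ± 10.0 CPM in control muscle (SD), with a log2 fold change of 3.31 ± 0.24 (adjusted p 4.11e-07). Ddit4, an inhibitor of mTORC1, averaged 318 ± 79.4 CPM in IgG muscle and 55.6 ± 49.8 CPM in control muscle (2.52 ± 0.50, adjusted p 0.000475), and the secreted glycoprotein gene Stc2 had 2.41 ± 0.34 (adjusted p 2.47e-05). Of these 7, 4 were lower in anti-CD8a against IgG muscle, against 24.8% of all genes, among them Eif4ebp1 (-3.22 ± 0.29, adjusted p 9.61e-06), Stc2 (-1.52 ± 0.38, adjusted p 0.00407) and the mTORC1 inhibitor Sesn2 (-1.42 ± 0.31, adjusted p 0.00181).

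Aminoacyl tRNA synthetases load amino acids on tRNA, and their list also held Xpot, a tRNA export gene. Of these 13 genes 11 were higher and 0 lower in IgG muscle against control, against 30.2% and 28.4% of all genes. Their median log2 fold change was 0.88. In anti-CD8a against IgG muscle 11 were lower and 0 higher, against 24.8% and 23.2% of all genes. Eprs averaged 484 ± 73.9 CPM in IgG muscle and 186 ± 49.4 CPM in control muscle (1.38 ± 0.18, adjusted p 1.6e-05), Tars had 1.16 ± 0.15 and Iars 1.02 ± 0.10. Against IgG, anti-CD8a muscle had Eprs at -1.09 ± 0.22, Tars at -0.95 ± 0.17 and Aars at -0.91 ± 0.15, all called. Of 7 amino acid transporters tested 4 were higher and 0 lower in IgG muscle against control, against 30.2% and 28.4% of all genes. They were the cationic carrier Slc7a1 (2.43 ± 0.29), both chains of the leucine carrier, Slc7a5 (1.89 ± 0.42) and Slc3a2 (1.36 ± 0.21), and the glycine carrier Slc6a9 (0.87 ± 0.30). Slc7a5 (-2.17 ± 0.51), Slc7a1 (-1.84 ± 0.34) and Slc3a2 (-1.14 ± 0.24) were lower in anti-CD8a than in IgG muscle, and 0 transporters were higher, against 24.8% and 23.2% of all genes. Slc7a5 rested partly on IgG replicate 4, without which its log2 fold change was 1.19 in IgG muscle against control and -1.47 in anti-CD8a against IgG muscle, still called in both.

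Of 11 enzymes of amino acid synthesis and one-carbon metabolism 2 were higher and 3 lower in IgG muscle against control, with a median of 0.03, close to the 30.2% and 28.4% of all genes; leaving out control replicate 3 gave 4 higher, as did leaving out IgG replicate 2. Cbs (2.85 ± 0.63) and Cth (1.52 ± 0.40), which make cysteine from homocysteine, rose; without IgG replicate 4 they were at 2.24 and 0.91. Psph, the last enzyme of serine synthesis, fell, at 1.83 ± 1.27 CPM in IgG muscle and 7.82 ± 1.39 CPM in control muscle, with a log2 fold change of -2.09 ± 0.31 (adjusted p 4.2e-05), or -2.70 without IgG replicate 2. So of the 3 enzymes of that pathway the first and last, Phgdh and Psph, were lower and the middle one, Psat1, was higher. Against IgG, anti-CD8a muscle had 3 of the 11 higher and 1 lower, where 23.2% of all genes were higher and 24.8% lower: Psph had 1.98 ± 0.34 (2.59 without IgG replicate 2), the proline enzyme Pycr1 1.06 ± 0.27 and Cbs -1.93 ± 0.68. Cbs was at -1.32 and not called without IgG replicate 4 (adjusted p 0.117), and at -3.29 without anti-CD8a replicate 3. The lower count ran from 0 to 3 with single libraries left out, 0 of them without IgG replicate 4 or anti-CD8a replicate 1 or 2.

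Upstream of ATF4, the list of eIF2α kinases and phosphatase regulators also held Eif2s1, which encodes eIF2α itself. It further held Gcn1l1, Impact, Dele1 and Oma1, genes that act through the kinases. Of these 10 genes 7 rose and 2 fell in IgG muscle against control, against 30.2% and 28.4% of all genes. The largest were Gcn1l1, the partner that activates the amino acid sensor kinase GCN2 (1.85 ± 0.17), Ppp1r15b, the constant counterpart of Ppp1r15a (1.57 ± 0.17), and, lower, Eif2ak2, the kinase PKR that senses double-stranded RNA (-1.42 ± 0.22). These 3 genes were at -1.63 ± 0.20, -1.38 ± 0.20 and 1.198 ± 0.24 in anti-CD8a against IgG muscle, all called. Of 7 bZIP partners and regulators tested 3 rose and 2 fell in IgG muscle against control, close to those shares of all genes, and 1 and not 2 fell in 11 of 26 alternatives; Atf3 was at 1.79 ± 0.40, the antioxidant regulator Nfe2l2 at 1.41 ± 0.15 and the stress cofactor Nupr1 at -1.17 ± 0.26. Nupr1 (1.01 ± 0.28) and Jdp2 (0.69 ± 0.23) were higher in anti-CD8a than in IgG muscle and Nfe2l2 (-0.87 ± 0.17) was lower, where 23.2% of all genes were higher and 24.8% lower. With single libraries left out the counts in each direction were 1 or 2.

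Of 14 genes of the endoplasmic reticulum unfolded protein response 10 rose and 2 fell in IgG muscle against control, against 30.2% and 28.4% of all genes, or 6 and not 10 rose with upper-quartile scaling. Edem1, which sends misfolded glycoproteins to degradation, had 1.82 ± 0.33, the cochaperone gene Dnajb9 1.56 ± 0.22 and the disulfide isomerase gene Pdia4 -1.32 ± 0.32. Set against IgG, anti-CD8a muscle had 9 lower and 1 higher, against 24.8% and 23.2% of all genes, with Edem1 at -1.78 ± 0.40, Dnajb9 at -1.48 ± 0.26 and the sensor gene Atf6 at -1.31 ± 0.14. Of 6 genes of the mitochondrial unfolded protein response 3 rose and 0 fell in IgG muscle against control, against 30.2% and 28.4% of all genes. They were the protease genes Clpp (1.05 ± 0.17) and Lonp1 (0.48 ± 0.13, lost with upper-quartile scaling) and the chaperone gene Hspa9 (0.71 ± 0.14). The 3 were lower in anti-CD8a than in IgG muscle, at -1.02 ± 0.19 for Clpp, -0.48 ± 0.16 for Hspa9 and -0.42 ± 0.15 for Lonp1. With 0 of the list higher, this stands against 24.8% of all genes lower and 23.2% higher. The count of 3 lower was 1 in 7 of 26 alternatives: upper-quartile scaling, no filter, these 2 groups alone, and leaving out IgG replicate 1 or 3 or anti-CD8a replicate 1 or 3. A gene of the list was called higher with upper-quartile scaling and with library totals.

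**Figure D4:**
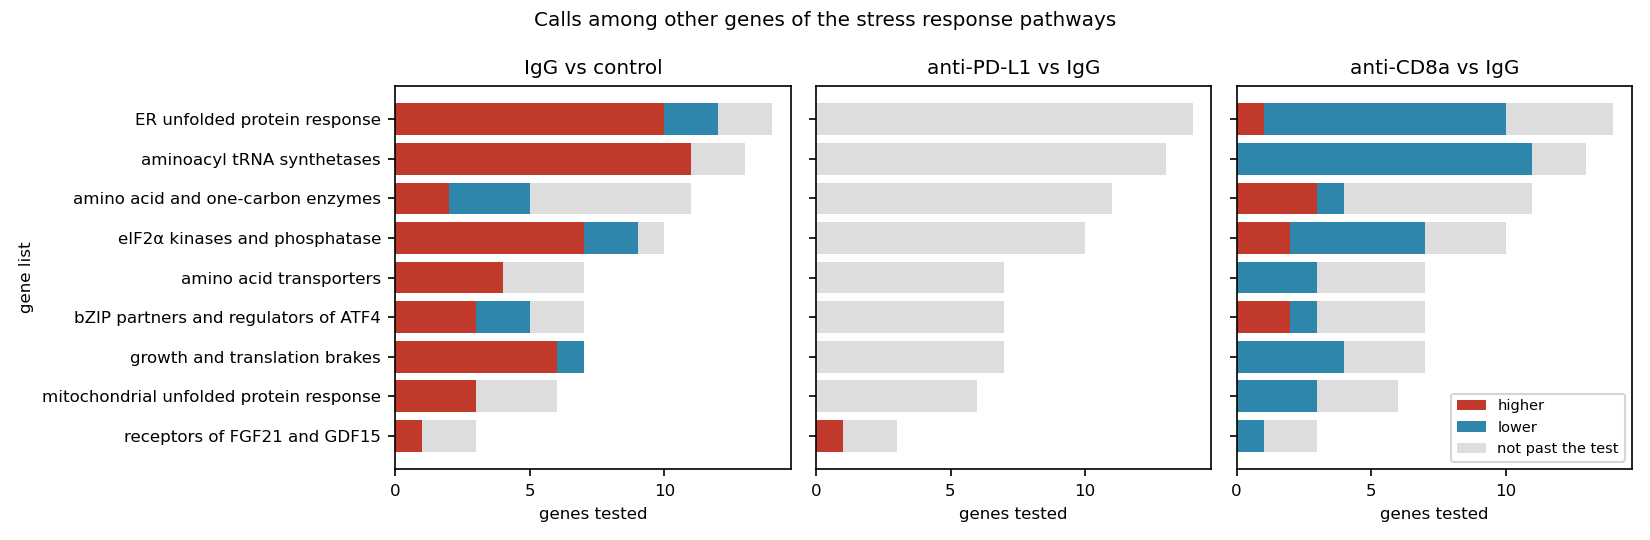
Number of genes tested (x axis) in each of 9 pathway lists (y axis) that were higher, lower or not past an adjusted p under 0.05, in 3 comparisons. In IgG against control 47 of 78 genes are higher, in anti-PD-L1 against IgG 1 of 78, and in anti-CD8a against IgG 38 of 78 are lower.

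In anti-PD-L1 against IgG muscle 1 of the 78 genes was higher and 0 lower, against 3.96% and 1.54% of all genes, with 12 lower at an unadjusted p under 0.05 in edgeR and 5 lower after adjustment with DESeq2. Without anti-PD-L1 replicate 2 there were 4 higher and 7 lower, 3 and 5 without IgG replicate 2, and 7 and 13 without both. The gene called was Fgfr1, a receptor for fibroblast growth factors including FGF21, at 84.2 ± 6.71 CPM in anti-PD-L1 muscle and 51.9 ± 17.1 CPM in IgG muscle (0.70 ± 0.18, adjusted p 0.0403); the call ended when any of control replicate 5, IgG replicates 1, 3 and 4 and anti-PD-L1 replicates 1 and 3 was left out, with adjusted p of 0.0547 to 0.153. The gene of smallest p in each other list had the following log2 fold changes, none called: Slc7a1 -0.99 ± 0.32, Jdp2 0.78 ± 0.23, Psph 0.78 ± 0.34, Ppp1r15b -0.50 ± 0.20, Aars -0.44 ± 0.15, Atf6 -0.42 ± 0.14, Lonp1 -0.36 ± 0.15 and Eif4ebp1 -0.36 ± 0.26.

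The receptors of the 2 hormones near zero were themselves sparse where they are specific. Gfral, the GDF15 receptor known from the hindbrain, had 1 count in all 15 libraries. Klb, the coreceptor of FGF21, had 30 counts in IgG muscle, 50 in anti-PD-L1 muscle, 1 in anti-CD8a muscle and 2 in control muscle, summed over the libraries of a group. A single anti-PD-L1 library held 40 of the 50. Scaled to library size, the ratio of IgG to control was 20.6 (95% interval 5.22 to 178, counting error only), and the gene was called higher, but fell under the filter on low counts without IgG replicate 2 or 4.

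Markers of other cells differed between the groups beside these results. The summed level of 7 macrophage genes was 52.2 to 90.2 CPM in IgG muscle, 151 to 527 CPM in anti-PD-L1 muscle, 56.2 to 199 CPM in anti-CD8a muscle and 75.9 to 146 CPM in control muscle. The sum of 3 neutrophil genes was 2.85 to 9.45 CPM in IgG muscle, 10.8 to 48.7 CPM in anti-PD-L1 muscle, 2.34 to 7.57 CPM in anti-CD8a muscle and 0.223 to 3.74 CPM in control muscle. All 3 were called higher in IgG muscle against control, where 30.2% of all genes were higher. All 3 were also higher in anti-PD-L1 muscle against control, against 20.8% of all genes. In anti-CD8a muscle against control 0 were called higher and 0 lower, against 0.00696% of all genes in each direction. The sum of 4 fibroblast genes was 486 to 675 CPM in IgG muscle, 1014 to 1258 CPM in anti-PD-L1 muscle, 685 to 735 CPM in anti-CD8a muscle and 785 to 1055 CPM in control muscle. Dcn had the most counts of the 4, 196826 over all libraries, and Col1a2 was next with 25469. By gene, 0 of these 4 were called higher and 3 lower in IgG muscle against control, against 30.2% and 28.4% of all genes. In anti-PD-L1 muscle against control 1 was called higher and 2 lower, against 20.8% and 13.9% of all genes. In anti-PD-L1 against anti-CD8a muscle 2 were higher and 2 lower, against 12.1% and 7.64% of all genes. In anti-PD-L1 against IgG muscle 3 were higher and 0 lower, against 3.96% and 1.54% of all genes. IgG muscle, with the highest Atf4 and Ppp1r15a, had the lowest fibroblast sums, and macrophage sums that overlapped those of anti-CD8a and control muscle. By gene, 6 of the 7 macrophage genes were called lower and 1 higher in IgG muscle against control (median log2 fold change -1.23), against 28.4% and 30.2% of all genes. In anti-CD8a against IgG muscle 5 were higher and 1 lower, against 23.2% and 24.8% of all genes. In anti-PD-L1 muscle against control 4 were higher and 0 lower, against 20.8% and 13.9% of all genes. In anti-PD-L1 against IgG muscle 6 were higher and 0 lower, against 3.96% and 1.54% of all genes. The sum of 4 T cell genes was 0.0611 to 0.120 CPM in IgG muscle, 0.0477 to 2.06 CPM in anti-PD-L1 muscle, 0.248 to 0.545 CPM in anti-CD8a muscle and 0.802 to 1.40 CPM in control muscle. These are few counts: the IgG sums lay below 3 counts of a library, which is 0.181 to 0.189 CPM there. Only 1 of the 4 genes passed the filter, and over all libraries Cd3e had 113 counts, Cd4 42, Cd3d 11 and Cd8a 10. The sum of 3 Schwann cell genes was 8.12 to 41.8 CPM in IgG muscle, 13.2 to 43.6 CPM in anti-PD-L1 muscle, 15.1 to 59.4 CPM in anti-CD8a muscle and 48.3 to 146 CPM in control muscle. For 3 adipocyte genes the sum was 0.378 to 40.2 CPM in IgG and 4.91 to 71.4 CPM in anti-PD-L1 muscle. It was 3.32 to 11.3 CPM in anti-CD8a and 1.25 to 7.51 CPM in control muscle. Of these 3 genes 0 were called higher in IgG and 2 in anti-PD-L1 muscle against control, against 30.2% and 20.8% of all genes. No marker of these lists was at 0 in all 15 libraries. The part of these cells, of the mitochondrial share and of the libraries that stood apart in the levels of the 10 genes was not tested.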

How the data were processed

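The deposited values are RSEM expected counts and TPM per gene, 1 table per library, made by the authors. Reads were trimmed with Trim Galore, and STAR 2.7.9a and RSEM 1.3.3 were used, per the submitters' processing notes. Libraries were made with a directional kit, per the labels' protocols; the genome build, the annotation and whether strand was used in counting are not given in the sources used here. Of 55416 identifiers 52083 matched a symbol in GENCODE names and 3333 did not.

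Each expected count was rounded before fitting. The totals, 15894822 to 22459370 per library, set the precision; 0 counts allow up to 3 counts. One model held all 4 groups (edgeR 4.0.16 under R 4.3.3), with TMM factors, filterByExpr and a quasi-likelihood test; it left 11 residual degrees of freedom, and p-values had Benjamini-Hochberg adjustment over 14372 genes in each of 6 comparisons. SE is the absolute log2 fold change over the square root of F. CPM used TMM factors, and correlations used log2 CPM with a prior count of 2. Near zero means a median count under 10 in every group. The TPM deposited by the authors served only for levels between genes. Alternatives used DESeq2 1.42.0, limma 3.58.1, other scalings, filters and left-out libraries. The test was tested on simulated data.

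All 10 genes were named in each comparison. From each pathway list, in IgG against control, anti-CD8a against IgG and anti-PD-L1 against IgG, up to 3 called genes of largest change were named, or the gene of smallest p; Slc6a9, Gfral and Krt8 were named outside that rule after their values were seen. The genes and lists were chosen with earlier results of these data known. The labels give no batch. Libraries were not paired by their replicate numbers: over 19 same-numbered pairs the correlation of deviations from group means was -0.345 to 0.18, and comparisons were unpaired. No 2 libraries of a group agreed within sampling noise.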

Additional observations from a re-analysis of the deposited data

Results flagged for a closer look

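In 19 gene and group combinations of 4 or 5 libraries, 4 had a library far from the others of its group by Dixon's criterion, which flags about 1 group in 20 by chance. Chac1 was at 139 CPM in IgG replicate 2 and at 8.44 to 15.5 CPM in the other IgG libraries. Ppp1r15a was at 533 CPM in IgG replicate 1 and at 209 to 228 CPM in the others. Asns was at 3.22 CPM in control replicate 3 and at 1.18 to 1.62 CPM in the other controls. Fgf21 was at 0.126 CPM in IgG replicate 3, which is 2 counts, and at 0 in the others.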

How the results depend on the processing

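Each of 48 log2 fold changes was recomputed under 26 alternatives, 1248 values in all: 1182 kept their direction and side of the threshold, 32 lost the call, 14 gained it and 20 changed sign. Of 19 calls, 13 were never lost. The numbers of genes higher in IgG against control, and lower in anti-CD8a against IgG, stayed within 1.5 times of the values reported. In IgG against control the number lower was 2 with upper-quartile scaling, 2 with limma-voom and 0 with the replicate block, and 0 to 2 with libraries left out. In anti-PD-L1 against control the number lower was 0 with library totals, 0 with the replicate block and 0 to 1 with libraries left out. In anti-PD-L1 against IgG the number lower was 2 without a filter, 2 with DESeq2, 0 with these groups alone, 0 with the replicate block and 0 to 2 with libraries left out, and the number higher was 0 to 1. In anti-CD8a against IgG the number higher was 0 to 1 with libraries left out. The cause of these shifts was not tested.

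The replicate numbers share no litter or day in the labels, and in 6 of 38 look-ups a library correlated best with its own number in another group; the replicate block changed the sign of Chac1 in anti-PD-L1 against control (-0.10) and of Asns in anti-PD-L1 against IgG (0.023), which was also 0.064 with upper-quartile scaling and 0.16 with library totals. With libraries left out, the log2 fold change in anti-PD-L1 against control ranged from -0.36 to 0.48 for Chac1 and from -0.61 to 0.13 for Phgdh. In anti-CD8a against control it ranged from -0.65 to 0.12 for Trib3 and from -0.037 to 0.32 for Psat1. In anti-PD-L1 against IgG it ranged from -0.37 to 0.18 for Asns. In anti-CD8a against IgG it ranged from -0.033 to 0.36 for Ddit3 and from -0.13 to 2.27 for Chac1, and in anti-PD-L1 against anti-CD8a from -0.24 to 0.50 for Phgdh. Upper-quartile scaling moved the median of all genes by -0.25 in IgG against control. The narrower core was in 2 of the genes' promoters, against 4. Genes at a few CPM, such as Trib3, Asns, Psat1 and Phgdh, are the ones whose precision depth limits.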
